A study of Caenorhabditis elegans with 53 samples.

Results

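The genes nrfl-1, oma-1, dcr-1 and rde-1 of the nematode Caenorhabditis elegans were the 4 targets against which double-stranded RNA (dsRNA) was introduced in this study of small RNAs. Their rows were found by the exact gene symbol in the name or class of a feature, which gave 44 of the 263395 rows in 9 tables. Of these, 9 rows held small RNAs read from introduced dsRNA, 26 held 22G-RNAs, 5 held 26G-RNAs and 4 held mRNAs. The identifiers in the tables are WBGene00006438 for nrfl-1, WBGene00003864 for oma-1, WBGene00000939 for dcr-1 and WBGene00004323 for rde-1. Each row is a sum over the small RNAs of a gene, so no individual sequence could be shown.

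When worms eat bacteria that make dsRNA, the ribonuclease Dicer cuts it into short interfering RNAs (siRNAs). These primary siRNAs are loaded into the Argonaute RDE-1, which finds the matching mRNA, and RNA-dependent RNA polymerases then copy that mRNA into secondary small RNAs known as 22G-RNAs. Germline genes also carry 22G-RNAs in untreated worms, many of them in the class bound by the Argonaute CSR-1. The target dcr-1 encodes Dicer and rde-1 encodes RDE-1, so in these libraries the RNA interference machinery was itself the target, whereas oma-1 encodes a zinc-finger protein of oocytes and nrfl-1 a membrane scaffold protein of the intestine. ALG-1 and ALG-2 are the Argonautes that carry most microRNAs.

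The series had 53 libraries in 22 groups, 47 of small RNA and 6 of mRNA, from worms grown at 20 °C for 72 to 75 h after the first larval stage, except for the mixed-stage embryos. GFP::RDE-1 co-immunoprecipitates (co-IPs) were set against their inputs, the lysates they were made from, in 2 libraries each with no RNAi named in the labels (allele cmp133 of rde-1, with pyrophosphohydrolase treatment) and in 3 each on nrfl-1 RNAi. GFP::ALG-1 (allele ap423) co-IPs and inputs had 3 libraries each on nrfl-1 RNAi. GFP::ALG-1 and GFP::ALG-2 (allele tor139) co-IPs and inputs had 2 each on rde-1 RNAi and 2 each on L4440, the empty vector. Lysates of the GFP::RDE-1 strain had 2 libraries on dcr-1 RNAi and 2 on L4440. Untreated worms were rde-1(ne219) against wild type for small RNAs (3 each), wild-type embryos (2) against adults (3), and rde-1(ram40) against wild type for mRNAs (3 each). All tags sit in the worm's own gene, and bacteria served as food throughout. The headers of some tables go against or fall short of these labels: those of the dcr-1 RNAi table name RDE-4::FLAG, HA stands in those for GFP::ALG-1 on nrfl-1 food, and those of the GFP::RDE-1 nrfl-1 RNAi table name no food and repeat titles of the libraries with no RNAi label, so that its 6 columns are used without replicate numbers. The labels do not say that libraries came from separate cultures, so p-values measure the spread between these libraries, which may be technical.

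Small RNA values are RPM as deposited, read counts scaled to the depth of a library, and the listed rows of a library summed to 379889 to 982594 RPM. One RPM stood for about 10.7 to 31.7 reads (median 17.8). The share of microRNAs in the summed RPM was 99.3% to 99.9% in the ALG co-IPs, 62.9% to 86.7% in the GFP::RDE-1 co-IPs, and 26.2% to 97.4% in all other small RNA libraries, and RPM values of other rows move with it. The adults of the embryo table and the wild-type adults had identical values in 3 of 3 column pairs over 25921 shared rows. Both comparisons thus rest on the same 3 wild-type libraries, although the labels of these columns differ in the pyrophosphohydrolase treatment. Rows of 22G-RNAs held 41.2% and 43.1% of the summed RPM in embryos and 57.4% to 60.7% in adults. The part of the treatment in the 22G-RNA values was not tested. The tables were normalized separately, so levels are compared only within a table.

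siRNAs against dcr-1 were the third most abundant of 25898 rows in both libraries of worms on dcr-1 RNAi, and the first outside the microRNAs. They stood at 16972 and 16749 RPM in dcr-1 RNAi worms, against 56.9 and 71.2 RPM in L4440 worms. The groups lay far apart and the dcr-1 RNAi libraries differed little from each other. The mean level was 263-fold that of L4440, a log2 fold change of 8.03 ± 0.08 (SE; limma, Benjamini-Hochberg adjusted p = 1.67e-22). Of all 7704 features tested 21.2% were called at an adjusted p under 0.05, 17.8% higher and 3.36% lower, and the row of dcr-1 siRNAs had the highest fold change of all, and the next feature reached a log2 fold change of 1.91. As a share of the summed RPM, siRNAs against dcr-1 made up 2.87% and 2.88% in dcr-1 RNAi worms, against 0.00980% and 0.0122% in L4440 worms, with an exact two-sided permutation p of 0.333, the smallest that 2 libraries against 2 can give.

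22G-RNAs of rde-1 and oma-1 missed the threshold in the same libraries. 22G-RNAs of rde-1 stood at 25.0 and 25.6 RPM in dcr-1 RNAi worms, against 22.3 and 20.1 RPM in L4440 worms. 22G-RNAs of oma-1 stood at 5.44 and 4.42 RPM in dcr-1 RNAi worms, against 3.42 and 3.74 RPM in L4440 worms. Both sets of libraries were higher on dcr-1 RNAi without overlap, but the log2 fold changes of 0.25 for rde-1 (limma, adjusted p = 0.148) and 0.37 for oma-1 (limma, adjusted p = 0.188) stood 0.03 and 0.16 above the median of all features, 0.21. No row of dcr-1 22G-RNAs was listed in this table, so the secondary small RNAs of the target itself are not analysed here. Among 48 genes of the RNA interference pathway, 31 had 22G-RNAs that were tested, of which 10 were called higher and 0 lower, with a median log2 fold change of 0.24. Over all features 17.8% were called higher and 3.36% lower, and in the CSR class 685 of 3443 tested rows were higher and 1 lower. No result about these genes is drawn from the count.

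**Figure D1:**
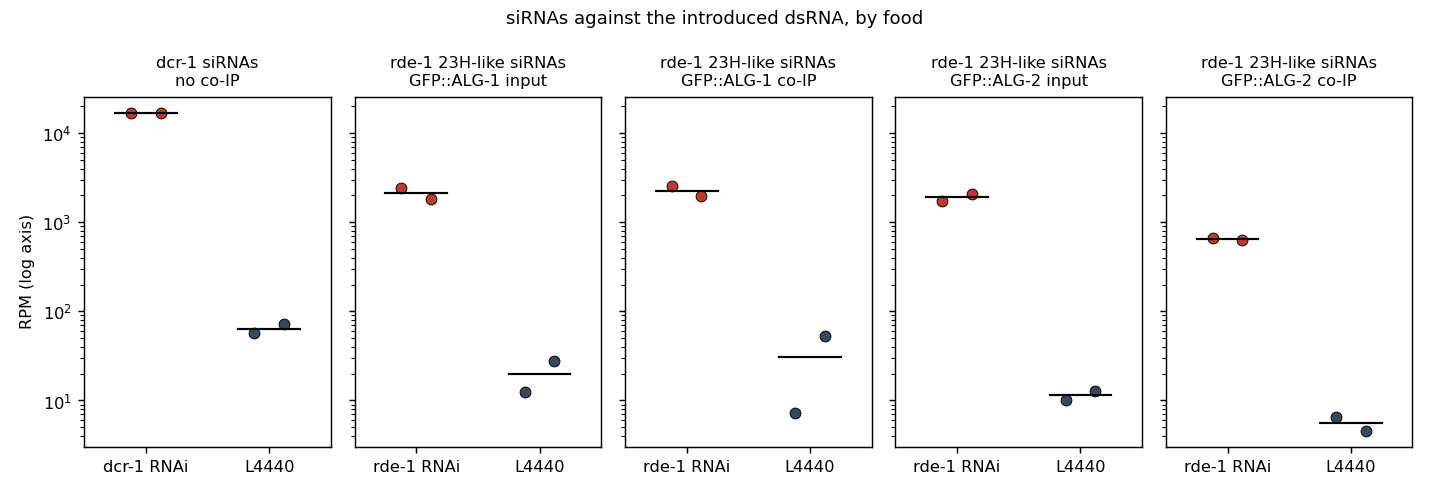
siRNA rows of dcr-1 and rde-1 in RPM on a log axis, each point a library and each line a group mean, with the RNAi food on the left (red) and the empty vector L4440 on the right (blue). In each panel both RNAi libraries lie above both L4440 libraries, with dcr-1 siRNAs at 16749 to 16972 RPM on dcr-1 RNAi and rde-1 siRNAs at 628 to 2545 RPM on rde-1 RNAi.

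Feeding rde-1 dsRNA gave siRNAs against rde-1, listed under the name of the 23H-RNAs, the low-abundance Dicer-dependent siRNAs that the series is about, in lysates of both ALG strains. In GFP::ALG-1 inputs they stood at 2434 and 1818 RPM on rde-1 RNAi, against 12.4 and 27.4 RPM on L4440. The log2 fold change was 6.76 ± 0.66 (SE; limma, adjusted p = 0.000183), where 0.287% of 3486 features were called, 0.201% higher and 0.0861% lower. Leaving out L4440 replicate 1 of these inputs lost the call (log2 fold change 6.21; limma, adjusted p = 0.0933), as did testing with no filter on low values (limma, adjusted p = 0.0863). In GFP::ALG-2 inputs siRNAs against rde-1 stood at 1738 and 2061 RPM on rde-1 RNAi, against 10.1 and 12.9 RPM on L4440. The log2 fold change was 7.25 ± 0.24 (SE; limma, adjusted p = 3.27e-13), where 0.871% of 3213 features were called, 0.467% higher and 0.405% lower. In both kinds of input the rde-1 siRNA row was the first of all rows outside the microRNAs on rde-1 RNAi and ranked 32 to 34 among all 25900 rows.

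22G-RNAs of rde-1 were listed in a row of RNAi 22G-RNAs and in a row of CSR-class 22G-RNAs, which may share reads, and both rose with the siRNAs. Whether the reads in these rows are secondary small RNAs was not tested. RNAi 22G-RNAs stood at 87.1 and 73.3 RPM on rde-1 RNAi, against 0.56 and 1.05 RPM on L4440, in GFP::ALG-1 inputs. CSR-class 22G-RNAs stood at 146.7 and 116.2 RPM on rde-1 RNAi, against 1.21 and 1.88 RPM on L4440, in the same inputs. Their log2 fold changes were 5.50 and 5.70. On L4440 both rows lay near or under the filter of 1 RPM, and with a pseudocount of 0.1 the log2 fold changes were 6.52 and 6.34, so no test is given. The 3 rows of rde-1 had the 3 highest fold changes of the table, and the next feature reached 1.70. In GFP::ALG-2 inputs RNAi 22G-RNAs stood at 48.6 and 64.2 RPM on rde-1 RNAi, against 0.55 and 0.34 RPM on L4440. CSR-class 22G-RNAs there stood at 104.4 and 114.1 RPM on rde-1 RNAi, against 1.71 and 0.68 RPM on L4440. The log2 fold changes were 5.30 and 5.69, again the highest after the siRNAs and given without a test for the same reason. 22G-RNAs of dcr-1 and oma-1 stayed under 1.1 RPM in all 16 libraries of these tables and did not pass the filter.

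The siRNAs outnumbered the RNAi 22G-RNAs of rde-1 on both foods in the inputs. The ratio within a library was 27.9 and 24.8 on rde-1 RNAi against 22.1 and 26.1 on L4440 in GFP::ALG-1 inputs, and 35.8 and 32.1 on rde-1 RNAi against 18.4 and 37.9 on L4440 in GFP::ALG-2 inputs. The foods overlapped in both strains, and the ratio is given without a test. These libraries carry no pyrophosphohydrolase label, and rows of 22G-RNAs held 0.766% to 0.946% of the summed RPM of the inputs in both tables, and the part of library preparation in this ratio was not tested.

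On rde-1 RNAi the rde-1 siRNAs rose too in the co-IPs of the microRNA Argonautes ALG-1 and ALG-2. In GFP::ALG-1 co-IPs siRNAs against rde-1 stood at 2545 and 1944 RPM on rde-1 RNAi, against 7.23 and 53.5 RPM on L4440. The L4440 co-IPs lay far apart, with replicate 2 above both L4440 inputs. The log2 fold change was 6.72 (limma, adjusted p = 9.82e-05), where 0.861% of features were called, 0.746% higher and 0.115% lower. It was 5.35 without L4440 co-IP replicate 1 and 8.08 without L4440 co-IP replicate 2, and the call was lost with no filter on low values (limma, adjusted p = 0.105). In GFP::ALG-2 co-IPs they stood at 663 and 628 RPM on rde-1 RNAi, against 6.60 and 4.55 RPM on L4440, a log2 fold change of 6.64 (limma, adjusted p = 1.56e-12), where 0.871% of features were called, 0.840% higher and 0.0311% lower. RNAi 22G-RNAs of rde-1 stood at 24.3 and 17.2 RPM on rde-1 RNAi, against 0.23 and 0.84 RPM on L4440, in GFP::ALG-1 co-IPs (log2 fold change 3.83). In GFP::ALG-2 co-IPs they stood at 6.47 and 8.97 RPM on rde-1 RNAi, against 0.13 and 0.24 RPM on L4440 (log2 fold change 2.87). CSR-class 22G-RNAs of rde-1 also rose in both kinds of co-IP, by 5.25 in GFP::ALG-1 and 4.18 in GFP::ALG-2 on the log2 scale. On L4440 both rows lay near or under the filter of 1 RPM, and their fold changes depend on the pseudocount. With a pseudocount of 0.1 they were 5.21 and 4.79 for RNAi 22G-RNAs and 6.39 and 5.85 for CSR-class 22G-RNAs, so no test is given. Of the 23H-RNA class 18 of 54 tested rows were higher and 2 lower in GFP::ALG-1 co-IPs, and 13 of 43 higher and 0 lower in GFP::ALG-2 co-IPs. In the inputs 3 of 54 were higher and 1 lower in GFP::ALG-1, and 4 of 43 higher and 0 lower in GFP::ALG-2. Such rows could pass the filter through the co-IPs on rde-1 RNAi alone, which favours higher rows. No result is drawn from these counts.

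**Figure D2:**
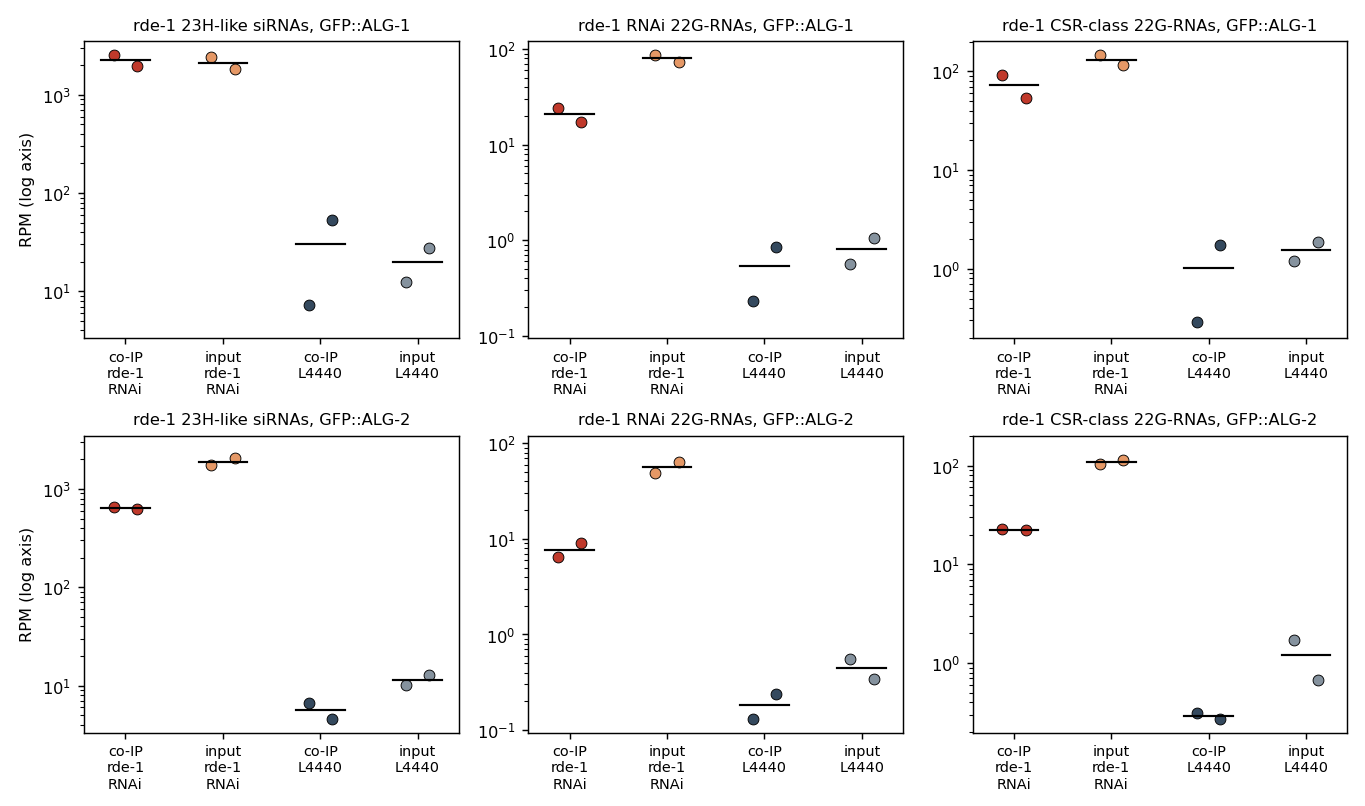
The 3 small RNA rows of rde-1 in GFP::ALG-1 (top) and GFP::ALG-2 (bottom) libraries, in RPM on a log axis; points are libraries and lines group means, with rde-1 RNAi left of L4440 and each co-IP left of its input. On rde-1 RNAi the siRNAs overlap between co-IP and input in GFP::ALG-1 and are lower in RPM in the co-IP in GFP::ALG-2, while both 22G-RNA rows are lower in RPM in the co-IPs of both strains.

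Set against inputs in RPM, rde-1 siRNAs missed the threshold in GFP::ALG-1 and fell in GFP::ALG-2. On rde-1 RNAi the level of siRNAs against rde-1 was 2244 ± 425 RPM in GFP::ALG-1 co-IPs and 2126 ± 435 RPM in GFP::ALG-1 inputs (SD, n = 2 each), with overlap and a log2 fold change of 0.08 (95% confidence interval -1.34 to 1.51; limma, adjusted p = 0.905). It was 645 ± 24 RPM in GFP::ALG-2 co-IPs and 1899 ± 228 RPM in GFP::ALG-2 inputs (SD, n = 2 each), a log2 fold change of -1.55 (limma, adjusted p = 5.89e-06). In these comparisons 98.5% of features in GFP::ALG-1 and 98.7% in GFP::ALG-2 were called. Of all features tested 3.67% and 4.23% were called higher in the co-IP and 94.8% and 94.5% lower. The median log2 fold changes were -2.50 and -2.55. Relative to those medians the rde-1 siRNAs stood 2.58 higher in GFP::ALG-1 and 1.00 higher in GFP::ALG-2. After centring each library on its median the log2 fold changes were 2.76 in GFP::ALG-1 (limma, adjusted p = 0.00246) and 1.14 in GFP::ALG-2 (limma, adjusted p = 9.40e-05), so the direction in GFP::ALG-2 turns with the scale. After rescaling to the rows that are not microRNAs the log2 fold changes were 3.73 in GFP::ALG-1 (limma, adjusted p = 0.00562) and 3.08 in GFP::ALG-2 (limma, adjusted p = 3.99e-07). On L4440 the same row had a log2 fold change of 0.12 in GFP::ALG-1 (limma, adjusted p = 0.858), which became 1.48 without co-IP replicate 1 (adjusted p = 0.00499) and -1.24 without co-IP replicate 2 (adjusted p = 0.0132), and of -0.94 in GFP::ALG-2 (limma, adjusted p = 0.00127), which turned to 4.23 after rescaling to the rows that are not microRNAs. On L4440 98.5% of features in GFP::ALG-1 were called, 3.18% higher and 95.3% lower, and 98.7% in GFP::ALG-2, 4.14% higher and 94.5% lower.

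The share of small RNAs outside the microRNAs gives this contrast without the bulk of the library. siRNAs against rde-1 held 47.0% and 39.4% of the RPM outside the microRNAs in co-IPs of GFP::ALG-1 worms fed rde-1 dsRNA, against 3.83% and 2.72% in the inputs. In GFP::ALG-2 they held 26.8% and 28.2% in the co-IPs, against 3.03% and 3.49% in the inputs. The row was the first outside the microRNAs in each of these 8 libraries. Of the whole summed RPM, the share ran the other way, at 0.231% in GFP::ALG-1 co-IPs against 0.421% in inputs, and 0.0659% in GFP::ALG-2 co-IPs against 0.452% in inputs (means, n = 2 each; exact permutation p = 0.333 in each, the smallest possible).

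Both rows of rde-1 22G-RNAs fell in RPM in the ALG co-IPs. RNAi 22G-RNAs stood at 20.8 ± 5.0 RPM in GFP::ALG-1 co-IPs and 80.2 ± 9.8 RPM in inputs on rde-1 RNAi (SD, n = 2 each), a log2 fold change of -1.91 (limma, adjusted p = 6.70e-06). In GFP::ALG-2 they stood at 7.72 ± 1.77 RPM in co-IPs and 56.4 ± 11.02 RPM in inputs, a log2 fold change of -2.72 (limma, adjusted p = 6.39e-11). These falls turned to rises of 1.66 and 1.72 after rescaling to the rows that are not microRNAs, and in GFP::ALG-1 also to a rise of 0.77 with each library centred on its median, which in GFP::ALG-2 lost the call (-0.0299; limma, adjusted p = 0.883). CSR-class 22G-RNAs fell by 0.87 in GFP::ALG-1 (limma, adjusted p = 0.0305), a call lost without co-IP replicate 2 (adjusted p = 0.219), input replicate 1 (0.175) or input replicate 2 (0.0630), and fell by 2.24 in GFP::ALG-2 (limma, adjusted p = 5.81e-09). These too turned to rises after rescaling to the rows that are not microRNAs, by 2.75 and 2.32, and with median centring the log2 fold changes were 1.81 in GFP::ALG-1 and 0.45 in GFP::ALG-2. The ratio of siRNAs to RNAi 22G-RNAs within a library is free of the scale. It was 104.8 and 112.9 in GFP::ALG-1 co-IPs, against 27.9 and 24.8 in inputs, and 102.4 and 70.0 in GFP::ALG-2 co-IPs, against 35.8 and 32.1 in inputs. Co-IPs lay above inputs without overlap in both strains, and the ratio is given without a test.

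siRNAs against nrfl-1 and oma-1 were the rows of introduced dsRNA in the GFP::RDE-1 libraries whose labels name no RNAi. The table lists them as exo-siRNAs, and how the dsRNA was given to these worms is not stated in the labels. siRNAs against nrfl-1 stood at 40064 and 67322 RPM in the co-IPs, against 359 and 385 RPM in the inputs. They took places 5 and 1 of 26180 rows in the co-IPs, against 201 and 200 in the inputs. Co-IPs and inputs lay far apart, and the second co-IP was the higher one. The log2 fold change was 7.12 ± 0.29 (SE; limma, adjusted p = 4.98e-05). siRNAs against oma-1 stood at 1208 and 2131 RPM in the co-IPs, against 10.99 and 12.18 RPM in the inputs, a log2 fold change of 6.997 ± 0.27 (SE; limma, adjusted p = 4.98e-05). Of 9046 features 94.2% were called, 6.94% higher and 87.2% lower, with a median of -1.87, and the siRNA rows of nrfl-1 and oma-1 took places 15 and 16 from the top.

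nrfl-1 and oma-1 siRNAs stood in nearly the same proportion in co-IP and lysate. The ratio of nrfl-1 to oma-1 siRNAs was 33.2 and 31.6 in the co-IPs, against 32.6 and 31.6 in the inputs. The groups overlapped, with means of 32.4 ± 1.1 in co-IPs and 32.1 ± 0.7 in inputs (SD, n = 2 each). The second co-IP held more of both, at 8.06% of the summed RPM for nrfl-1 and 0.255% for oma-1, against 4.64% and 0.140% in the first. Inputs held 0.0562% and 0.0604% for nrfl-1.

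22G-RNAs of rde-1 and dcr-1 fell in the same co-IPs. 22G-RNAs of rde-1 stood at 8.22 and 8.12 RPM in the co-IPs, against 33.4 and 36.0 RPM in the inputs, and fell by 1.96 on the log2 scale (limma, adjusted p = 5.44e-05). 22G-RNAs of dcr-1 stood at 8.37 and 5.56 RPM in the co-IPs, against 43.03 and 40.54 RPM in the inputs, and fell by 2.45 (limma, adjusted p = 9.82e-05). 22G-RNAs of rde-1 lay near the median of all features, 0.09 below it, while those of dcr-1 lay 0.58 below it, at place 1011 from the bottom of 9046. Centring each library on its median lost the call of rde-1 (log2 fold change -0.18; limma, adjusted p = 0.290) and kept that of dcr-1 (log2 fold change -0.67). Rows of oma-1 22G-RNAs were not listed in this table, but 22G-RNAs of its close paralog oma-2 stood at 3.43 and 1.73 RPM in the co-IPs, against 10.4 and 11.7 RPM in the inputs.

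**Figure D3:**
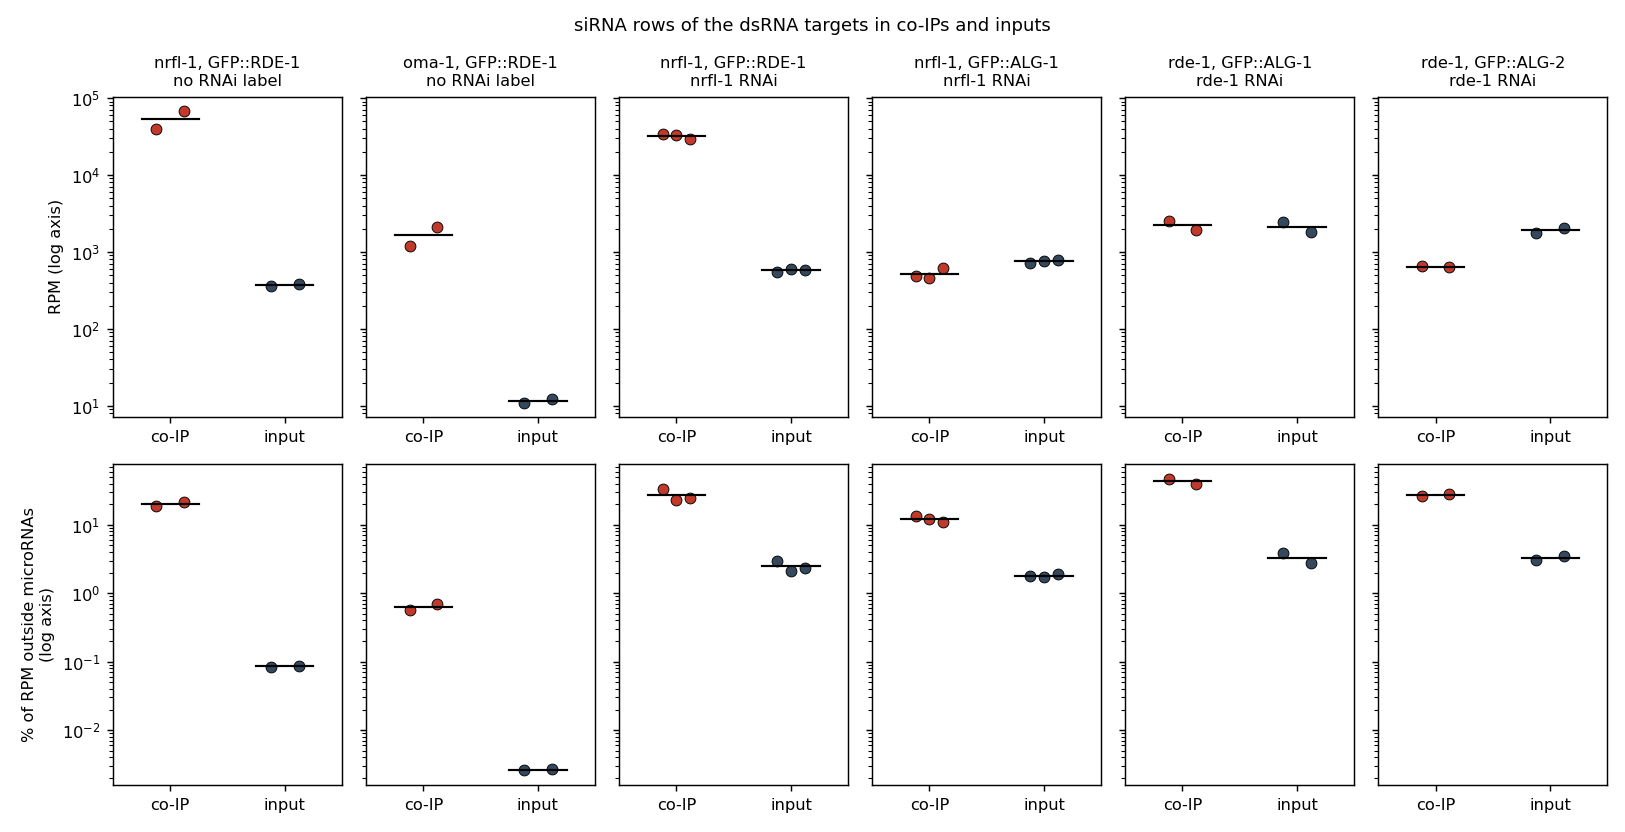
siRNA rows of nrfl-1, oma-1 and rde-1 in co-IPs (left, red) and inputs (right, blue) of GFP::RDE-1, GFP::ALG-1 and GFP::ALG-2, as RPM (top) and as a percentage of the RPM outside microRNAs (bottom), both on log axes; points are libraries and lines group means. In RPM the GFP::RDE-1 co-IPs lie far above their inputs and the ALG co-IPs overlap with theirs or lie below them, while outside the microRNAs each co-IP lies above its input.

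nrfl-1 dsRNA was fed both to GFP::RDE-1 and to GFP::ALG-1 worms, and its siRNAs rose in the co-IPs of GFP::RDE-1 and fell, in RPM, in those of GFP::ALG-1. In GFP::RDE-1 libraries on nrfl-1 RNAi they stood at 34525, 33312 and 29654 RPM in the co-IPs, against 551, 600 and 578 RPM in the inputs. All co-IPs lay above all inputs. Of the summed RPM they made up 4.34% to 4.70% in co-IPs, against 0.0767% to 0.0859% in the inputs (exact permutation p = 0.1, the smallest that 3 libraries against 3 can give). The log2 fold change was 5.81 ± 0.18 (SE; limma, adjusted p = 2.38e-08), where 88.2% of 3197 features were called, 15.1% higher and 73.1% lower. The row took place 36 from the top, 7.20 above the median log2 fold change of -1.39. The 23H-RNA class holds siRNAs of the worm's own genome. Of its 370 tested rows 361 were higher and 2 lower, with a median of 2.58, less than the value of the nrfl-1 siRNAs. The class as a whole took 8.43% to 14.97% of a co-IP library, against 0.0631% to 0.0916% of an input library. Its rows could thus pass the filter of 1 RPM through the co-IPs alone, which favours higher rows. No result is drawn from this count or median.

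In GFP::ALG-1 libraries on nrfl-1 RNAi the siRNAs against nrfl-1 stood at 493, 462 and 614 RPM in the co-IPs, against 720, 758 and 789 RPM in the inputs. All co-IPs lay below all inputs, and the log2 fold change was -0.54 ± 0.23 (SE; limma, adjusted p = 0.0285). That fall lost its call when any of 4 libraries was left out (limma), co-IP replicate 2 (adjusted p = 0.0731) or input replicate 1 (0.0651), 2 (0.0928) or 3 (0.107), and it turned to a rise of 1.57 with each library centred on its median and of 2.76 after rescaling to the rows that are not microRNAs. Of 3794 features 97.5% were called, 2.32% higher and 95.2% lower, with a median of -1.96, so that the nrfl-1 siRNAs stood 1.42 above the median. Outside the microRNAs they were the first row in all 6 libraries, at 13.6%, 12.3% and 10.9% of that RPM in the co-IPs, against 1.77%, 1.75% and 1.90% in the inputs. The difference between the Argonautes was not tested, since the tables were normalized separately.

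22G-RNAs were scarce in both nrfl-1 RNAi tables. 22G-RNAs of rde-1 stood at 0.04, 0 and 0.09 RPM in GFP::ALG-1 co-IPs, against 1.95, 1.99 and 2.49 RPM in inputs. The groups did not overlap, but the row passed the filter only through the inputs, and its fold change depends on the pseudocount (log2 fold change -1.59 with 1 and -4.01 with 0.1), so no test is given. 22G-RNAs of dcr-1 stood at 0 to 0.13 RPM in those co-IPs, against 1.14 to 3.19 RPM in the inputs, and did not pass the filter. In GFP::RDE-1 libraries on this food both genes stood under 2 RPM and neither passed it, with rde-1 at 0.43 to 0.81 RPM in co-IPs against 0.81 to 1.63 RPM in inputs, and dcr-1 at 0 to 0.67 RPM in co-IPs against 1.13 to 1.91 RPM in inputs. No 22G-RNA row of nrfl-1 was listed in either table, so secondary small RNAs of that target are not analysed here.

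**Figure D4:**
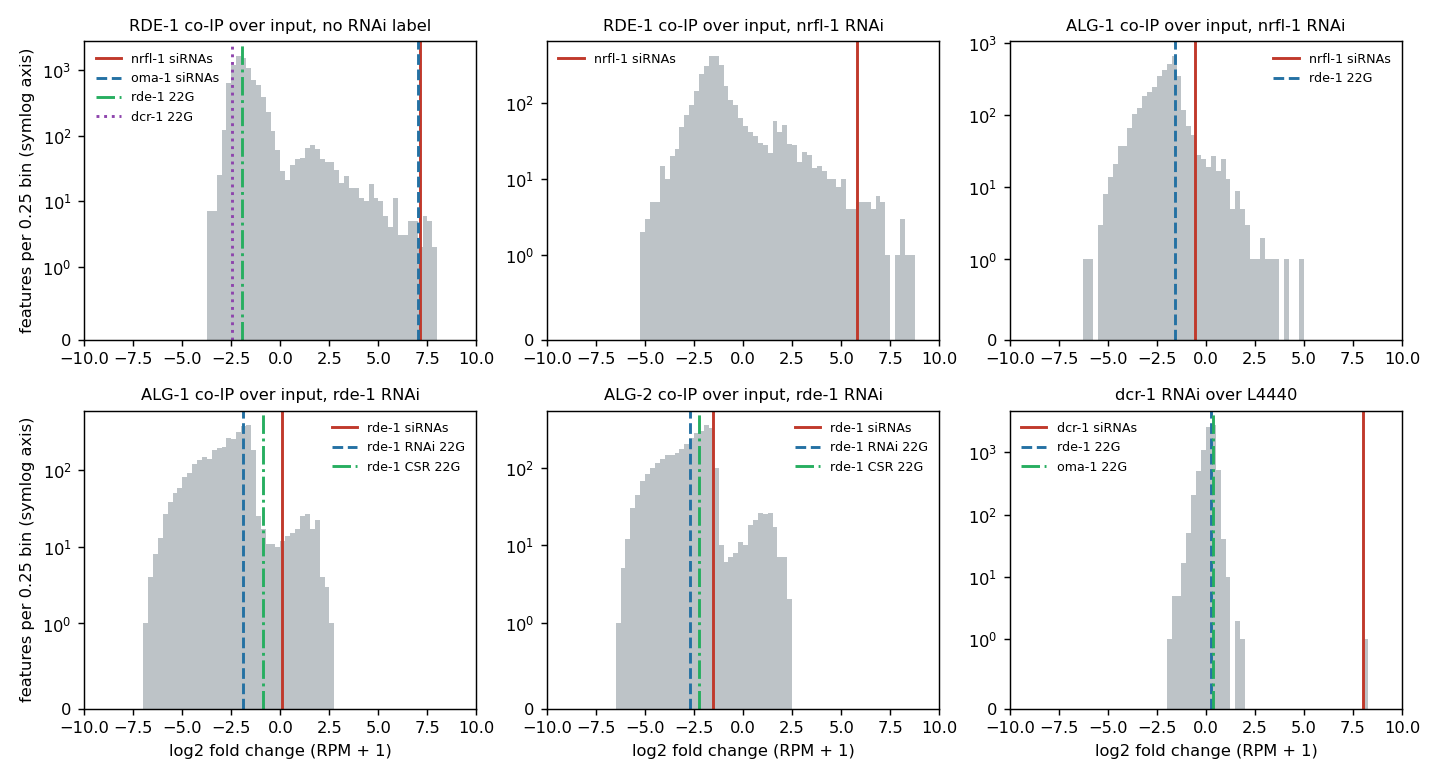
Log2 fold changes of all tested features (grey bars, count per bin of 0.25 on an axis that is linear up to 1 and logarithmic above) in 6 comparisons, with the rows of the 4 targets as vertical lines. The nrfl-1 and oma-1 siRNAs lie in the right tail for GFP::RDE-1, the nrfl-1 and rde-1 siRNAs lie between the large left peak and the right tail for GFP::ALG-1, the rde-1 siRNAs lie at the right edge of that peak for GFP::ALG-2, and the dcr-1 siRNAs stand alone at 8.03 on dcr-1 RNAi.

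In untreated worms rde-1 mRNA served as the check of the mutant label. Its normalized counts were 1.07, 0.864 and 0.834 in rde-1(ram40) worms, against 1506, 1619 and 1389 in wild-type worms. The mutant libraries thus held about the value of a single read, and the row passed the filter only through the wild-type libraries. Its log2 fold change of -9.61 depends on the pseudocount, being -7.11 with a pseudocount of 10, so no test is given. This was the largest fall of all 11331 genes tested, of which 41, or 0.362%, were called, 0.0794% higher and 0.282% lower.

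mRNAs of the other targets showed no call in rde-1(ram40) worms. dcr-1 mRNA stood at 3143, 2843 and 2685 normalized counts in rde-1(ram40) worms, against 3129, 3207 and 2395 in wild-type worms, with a log2 fold change of 0.00 (95% confidence interval -0.27 to 0.27; limma, adjusted p = 0.999). oma-1 mRNA stood at 1966, 1734 and 1710 in rde-1(ram40) worms, against 1917, 2112 and 1566 in wild-type worms, with a log2 fold change of -0.04 (interval -0.30 to 0.22; limma, adjusted p = 0.974). nrfl-1 mRNA stood at 588, 571 and 599 in rde-1(ram40) worms, against 608, 594 and 571 in wild-type worms, with a log2 fold change of -0.01 (interval -0.21 to 0.19; limma, adjusted p = 0.991). The groups overlapped for all 3 genes. Of the 48 RNA interference genes 45 were tested, and limma called 0 higher and 0 lower. Of the 3 yolk protein mRNAs of the adult intestine, vit-2 stood at 23507 to 26489 normalized counts in rde-1(ram40) worms and 33919 to 54154 in wild-type worms, without overlap. vit-5 stood at 33384 to 36800 in rde-1(ram40) worms and 35154 to 54314 in wild-type worms, and vit-6 at 66797 to 79065 in rde-1(ram40) worms and 73400 to 110424 in wild-type worms, both with overlap. The oocyte markers rme-2, cpg-1 and cpg-2 overlapped too, and the part of these markers in the results was not tested.

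22G-RNAs of rde-1 and oma-1 rose in rde-1(ne219) worms. 22G-RNAs of rde-1 stood at 34.7, 48.7 and 44.4 RPM in rde-1(ne219) worms, against 28.5, 30.4 and 33.2 RPM in wild-type worms, with a log2 fold change of 0.45 ± 0.11 (SE; limma, adjusted p = 0.00617). 22G-RNAs of oma-1, listed with the same values in the CSR class and among the targets of ALG-class 26G-RNAs, stood at 6.48, 6.05 and 5.69 RPM in rde-1(ne219) worms, against 4.29, 4.03 and 3.92 RPM in wild-type worms, with a log2 fold change of 0.48 ± 0.11 (SE; limma, adjusted p = 0.00384). Neither pair of groups overlapped. 22G-RNAs of dcr-1 stood at 36.8, 43.9 and 42.6 RPM in rde-1(ne219) worms, against 31.7, 36.8 and 38.1 RPM in wild-type worms, overlapped, and missed the threshold (log2 fold change 0.21; limma, adjusted p = 0.0812), which they passed without rde-1(ne219) replicate 1 (0.28; limma, adjusted p = 0.0226). Of 13650 features 52.4% were called, 39.5% higher and 12.9% lower, with a median of 0.18. Of the 3 tested targets 2 were called higher, too few rows to set apart from that share, and rde-1, oma-1 and dcr-1 stood 0.26, 0.29 and 0.02 above the median. 22G-RNAs of oma-2 stood at 9.51, 11.4 and 11.5 RPM in rde-1(ne219) worms, against 9.35, 8.89 and 9 RPM in wild-type worms (limma, adjusted p = 0.0844). 22G-RNAs of nrfl-1 were listed only here and below the filter, at 0.34 to 0.71 RPM in rde-1(ne219) worms and 0.41 to 0.65 RPM in wild-type worms. Of the 48 RNA interference genes 43 had tested 22G-RNAs, of which 29 were called higher and 1 lower. In the CSR class, which lists rde-1, oma-1 and dcr-1 too, 2374 of 3509 tested rows were higher and 24 lower, with a median log2 fold change of 0.35. No result about the listed genes is drawn from the count.

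22G-RNAs of the same 3 genes fell in embryos. 22G-RNAs of dcr-1 stood at 16.1 and 15.3 RPM in embryos, against 31.7, 36.8 and 38.1 RPM in adults, and fell by 1.13 on the log2 scale (limma, adjusted p = 2.73e-05). 22G-RNAs of rde-1 stood at 19.2 and 17.9 RPM in embryos, against 28.5, 30.4 and 33.2 RPM in adults, and fell by 0.70 (limma, adjusted p = 0.000243). 22G-RNAs of oma-1 stood at 2.41 and 3.35 RPM in embryos, against 4.29, 4.03 and 3.92 RPM in adults, and fell by 0.40 (limma, adjusted p = 0.0480). That last call of limma was lost when embryo replicate 1 (adjusted p = 0.255) or any adult library (replicate 1, 0.119; 2, 0.104; 3, 0.0817) was left out, and with each library centred on its median the log2 fold change was 0.27, which missed the threshold (limma, adjusted p = 0.204). Of 9554 features 77.7% were called, 12% higher and 65.7% lower, with a median of -0.67, so that rde-1 lay 0.03 below the median, dcr-1 0.46 below it and oma-1 0.27 above it. 22G-RNAs of oma-2 stood at 9.19 ± 0.37 RPM in embryos (n = 2) and 9.08 ± 0.24 RPM in adults (SD, n = 3; limma, adjusted p = 0.902). Of the RNA interference genes 31 had tested 22G-RNAs, of which 1 was called higher and 28 lower, while in the CSR class 49 of 3476 tested rows were higher and 3002 lower. The microRNA lin-4-5p of larvae and adults stood at 0.96 to 1.32 RPM in embryos and 5582 to 6381 RPM in adults.

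**Figure D5:**
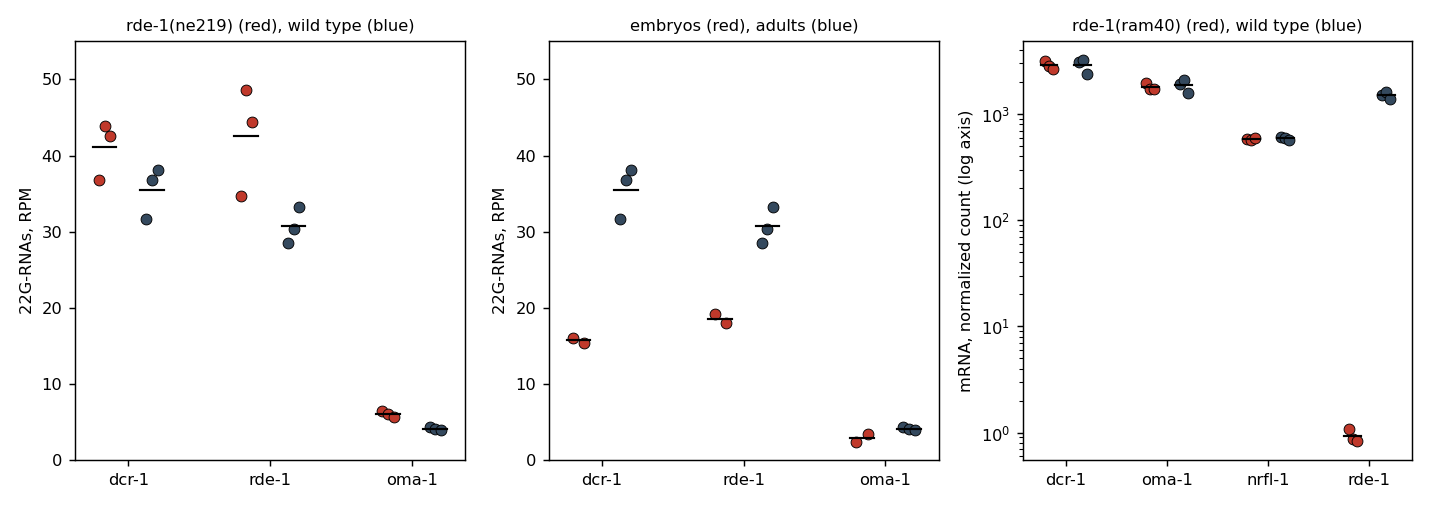
22G-RNAs of dcr-1, rde-1 and oma-1 in RPM on a linear axis (left, rde-1(ne219) in red and wild type in blue; middle, embryos in red and adults in blue) and mRNAs of the 4 targets as normalized counts on a log axis (right, rde-1(ram40) in red and wild type in blue); points are libraries and lines group means. rde-1 mRNA lies near 1 normalized count in rde-1(ram40) worms and the mRNAs of the other targets overlap between the groups.

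26G-RNAs of oma-1, the class of small RNAs bound by the Argonautes ALG-3 and ALG-4 of the male germline, were listed in 5 tables and stood at 0 to 0.13 RPM in every library. The small RNAs whose level followed that of the targets most closely were taken from log2(RPM + 1) centred on each table's mean, as a description with no test. Over the 16 libraries of the ALG tables with rde-1 RNAi, the siRNAs against rde-1 correlated most with its own CSR-class 22G-RNAs (r = 0.98) and RNAi 22G-RNAs (r = 0.95) and then with miR-789-5p (r = 0.94). Over the 16 libraries of the tables that list them, siRNAs against nrfl-1 correlated most with 23H-RNA sequences from K02E2.6 (r = 0.996) and F39E9.7 (r = 0.995) and with miR-232-5p (r = 0.995). These values mostly repeat the split between groups, since the libraries share food, Argonaute and microRNA share. 22G-RNAs of rde-1 correlated at most at 0.45 with another row, C33A12.3, over 42 libraries.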

How the data were processed

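Small RNAs of 16 to 30 nt were gel-selected and sequenced, per the labels' protocols, and the authors deposited them as RPM per feature in 8 tables, made with tinyRNA and their own scripts per the series' design text. The mRNA table holds counts that the authors normalized with DESeq2 size factors, as deposited, a signal that is no longer a raw count, after fastp, STAR and RSEM per the submitters' processing notes. The genome build is not given in the sources used here, nor is the RPM denominator. Of low RPM values 73.0% to 94.6% lay on whole steps of a single read within 0.0055 RPM, against 11.8% to 34.9% for random values. Exact read counts were not recovered from these steps, and no count test was run.

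Rows averaging 1 RPM or more (mRNA 10) over the fitted libraries were tested by linear models of limma 3.58.1 under R 4.3.3, moderated by eBayes with its trend option, as log2(value + 1) and two-sided, with Benjamini-Hochberg adjustment over all features and calls at an adjusted p under 0.05. A fold change on this scale understates that of low features. The 4 groups of each ALG table with L4440 were fitted together, the others as pairs. One blank cell removed 1 feature of the GFP::ALG-1 nrfl-1 RNAi table. Shares were tested by exact permutation. Values were tabulated with Python 3.11.15, pandas 2.3.3 and numpy 2.4.6 and drawn with matplotlib 3.10.9, and the fits were tested on simulated data.

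Columns were matched to samples by header and label. A dcr-1 RNAi column whose header gives a replicate number that the labels do not have, and the 6 columns of the GFP::RDE-1 nrfl-1 RNAi table, were used as unnumbered libraries of their groups; headers of that table repeat titles of the libraries with no RNAi label, whose labels name another table. The text names every row of the 4 genes, oma-2, fixed markers and a list of 48 RNA interference genes, and the rows most like a member. The members and lists were chosen with earlier results of these data known. Alternatives were the pseudocount, the filter, 3 scalings, the trend, a replicate block and leaving out each library. The difference between foods in co-IP over input was added after seeing the data. The precision is limited by 2 or 3 libraries a group.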

Additional observations from a re-analysis of the deposited data

Results flagged for a closer look

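In GFP::ALG-2 a test of the interaction of food with co-IP over input, added after the data were seen, passed the threshold for both rows of rde-1 22G-RNAs, but it rests on rows that passed the filter only through the rde-1 RNAi libraries. L4440 libraries held under 2 RPM of either row, where a pseudocount of 1 presses the L4440 fold change toward 0, so no difference between foods is drawn from it. For RNAi 22G-RNAs the value was lower on rde-1 RNAi than on L4440 (interaction -2.44 on the log2 scale; limma, adjusted p = 8.42e-05), and for CSR-class 22G-RNAs the interaction was -1.51 (limma, adjusted p = 0.0317). Of 3213 features 0.311% were called. With a pseudocount of 0.1 both calls were lost, at -1.92 (adjusted p = 0.778) and -0.68 (adjusted p = 0.999), as they were with no filter (limma, adjusted p = 0.291 for each). They were also lost after rescaling to the rows that are not microRNAs, at -0.36 (limma, adjusted p = 0.766) and 0.0489 (limma, adjusted p = 0.956). The CSR-class call was also lost without L4440 input replicate 2 (adjusted p = 0.247), rde-1 RNAi input replicate 1 (0.102) or 2 (0.252), and rde-1 RNAi co-IP replicate 1 (0.0537) or 2 (0.0570). For the siRNAs against rde-1 in GFP::ALG-2 the interaction was -0.62 (limma, adjusted p = 0.815). In GFP::ALG-1 the interactions were -1.67 for RNAi 22G-RNAs (limma, adjusted p = 0.112), which passed the threshold when rescaled to the sum over all rows (-2.22; limma, adjusted p = 0.0369), -0.45 for CSR-class 22G-RNAs (limma, adjusted p = 0.853) and -0.04 for the siRNAs (limma, adjusted p = 0.993).

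siRNAs against nrfl-1 were higher in all co-IPs than in all inputs of GFP::RDE-1 (log2 fold change 5.81) and lower in all co-IPs than in all inputs of GFP::ALG-1 (log2 fold change -0.54), both on nrfl-1 RNAi. This difference was not tested, since the tables were normalized separately, and the GFP::ALG-1 value turned positive under 2 scalings.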

How the results depend on the processing

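The calls that kept their direction and side of the threshold under every alternative run were siRNAs against nrfl-1 (log2 fold change 6.71 to 8.90) and oma-1 (6.59 to 8.77) in GFP::RDE-1 with no RNAi label, against nrfl-1 in GFP::RDE-1 on nrfl-1 RNAi (3.43 to 7.07), against dcr-1 (7.77 to 8.19), against rde-1 in GFP::ALG-2 inputs (7.09 to 7.41) and co-IPs (6.005 to 6.86), 22G-RNAs of oma-1 (0.32 to 0.56) and rde-1 (0.29 to 0.59) in rde-1(ne219), and 22G-RNAs of dcr-1 in embryos (-1.24 to -0.45) and in GFP::RDE-1 with no RNAi label (-2.83 to -0.67). Both rows of rde-1 22G-RNAs on rde-1 RNAi over L4440 kept their direction in inputs and co-IPs of both ALG strains (2.50 to 6.71). On L4440 these rows lay near or under the filter of 1 RPM, so they are not counted among the calls. rde-1 mRNA kept its direction too (-9.67 to -7.11), but passed the filter only through the wild-type libraries and is not counted either.

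With each library centred on its median, log2 fold changes of co-IP over input became 1.57 for nrfl-1 siRNAs and 0.52 for rde-1 22G-RNAs in GFP::ALG-1 on nrfl-1 RNAi. Those rde-1 22G-RNAs stood at 0 to 0.09 RPM in the co-IPs, where the value depends on the pseudocount, so no direction is drawn from it. In GFP::ALG-1 siRNAs, CSR-class and RNAi 22G-RNAs of rde-1 became 2.76, 1.81 and 0.77 on rde-1 RNAi and 2.80, 2.26 and 2.43 on L4440. In GFP::ALG-2 the siRNAs and CSR-class 22G-RNAs became 1.14 and 0.45 on rde-1 RNAi, and siRNAs, CSR-class and RNAi 22G-RNAs became 1.76, 1.97 and 2.41 on L4440. Rescaled to rows that are not microRNAs, nrfl-1 siRNAs in GFP::ALG-1 became 2.76, the same 3 rows of rde-1 became 3.73, 2.75 and 1.66 on rde-1 RNAi and 4.86, 2.83 and 2.55 on L4440 in GFP::ALG-1, and 3.08, 2.32 and 1.72 on rde-1 RNAi and 4.23, 2.27 and 2.08 on L4440 in GFP::ALG-2. Rescaled to the sum of all rows, the rde-1 siRNAs in GFP::ALG-1 became -0.87 on rde-1 RNAi and -0.73 on L4440. As a share of rows that are not microRNAs, co-IPs exceeded inputs by 10.45 percentage points for nrfl-1 in GFP::ALG-1, by 39.9 on rde-1 RNAi and 1.62 on L4440 for rde-1 in GFP::ALG-1, and by 24.2 and 0.405 in GFP::ALG-2. On L4440 both 22G-RNA rows of rde-1 lay near or under the filter of 1 RPM, so no direction is drawn from their values there. The causes were not tested.

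With no filter the calls of rde-1 siRNAs over L4440 were lost in GFP::ALG-1 inputs (6.76; limma, adjusted p = 0.0863) and co-IPs (6.72; limma, adjusted p = 0.105), where more features were tested. In embryos the rde-1 call was lost with median centring (-0.0216), and that of oma-1 with a pseudocount of 0.1 (-0.51), no filter (-0.40), rescaling to rows that are not microRNAs (-0.12) and the replicate block (-0.42), and it turned to 0.27 with median centring. The interaction of CSR-class 22G-RNAs turned to 0.0432 in GFP::ALG-1 with a pseudocount of 0.1 and to 0.0489 in GFP::ALG-2 after rescaling to rows that are not microRNAs.

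Leaving out each library gave ranges of -0.66 to -0.45 for nrfl-1 siRNAs in GFP::ALG-1, 6.21 to 7.30 for rde-1 siRNAs in GFP::ALG-1 inputs, and, for co-IP over input in GFP::ALG-1, -0.13 to 0.29 on rde-1 RNAi and -1.24 to 1.48 on L4440, where the share ran from -0.00321 to 0.00153 percentage points. On L4440 CSR-class 22G-RNAs ran from -0.97 to 0.12 and RNAi 22G-RNAs from -0.54 to 0.0411. The interactions in GFP::ALG-1 ran from -0.99 to 0.0929 for CSR-class 22G-RNAs and -1.40 to 1.32 for siRNAs. 22G-RNAs of dcr-1 in rde-1(ne219) ran from 0.13 to 0.28 and those of oma-1 in embryos from -0.57 to -0.22. mRNAs ran from -0.14 to 0.0753 for dcr-1, -0.16 to 0.0550 for oma-1 and -0.0365 to 0.00882 for nrfl-1.

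The labels do not say that replicate numbers pair libraries, and in no comparison with 3 numbers was every correlation of deviations between like-numbered libraries over 0.1. They were -0.08, -0.03 and -0.25 in GFP::ALG-1 on nrfl-1 RNAi, 0.01, -0.21 and -0.07 in rde-1(ne219), and 0.22, -0.16 and 0.20 for mRNA, where numbers 1 and 3 correlated best with their own. For embryos they were -0.05 for number 1 and 0.32 for number 2. With the replicate block dcr-1 22G-RNAs in rde-1(ne219) kept a log2 fold change of 0.21 and passed the threshold (limma, adjusted p = 0.0331), features called went to 58 of GFP::ALG-2 inputs instead of 28 and to 89 mRNAs instead of 41, and besides oma-1 in embryos no other call of a member changed. No paired analysis was possible for dcr-1 RNAi and for GFP::RDE-1 on nrfl-1 RNAi because their columns lack numbers.

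Counts of features past the threshold moved further than those of members: with no trend 9 were called on dcr-1 RNAi instead of 1632, with no filter 31, and without single libraries 94 to 1115. With median centring 3210 were called in GFP::RDE-1 with no RNAi label instead of 8520. Values well under 1 RPM rest on few reads, and the part of depth in the low 22G-RNA values was not tested.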

Other observations

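The CSR-class and RNAi 22G-RNAs of rde-1 stood in different proportion in co-IPs and inputs on rde-1 RNAi. Their ratio was 3.81 and 3.14 in GFP::ALG-1 co-IPs, against 1.68 and 1.59 in inputs, and 3.49 and 2.46 in GFP::ALG-2 co-IPs, against 2.15 and 1.78 in inputs. The ratio of siRNAs to CSR-class 22G-RNAs was 27.5 and 36.0 in GFP::ALG-1 co-IPs, against 16.6 and 15.6 in inputs, and 29.3 and 28.5 in GFP::ALG-2 co-IPs, against 16.6 and 18.1 in inputs. Neither ratio overlapped between co-IPs and inputs on this food, and neither was tested. On L4440, where both 22G-RNA rows held under 2 RPM, the first ratio averaged 1.67 in co-IPs and 1.98 in inputs of GFP::ALG-1, and 1.75 in co-IPs and 2.55 in inputs of GFP::ALG-2, with overlap in both. The ratio of siRNAs to CSR-class 22G-RNAs on L4440 averaged 27.8 in co-IPs and 12.4 in inputs of GFP::ALG-1, without overlap, and 19.1 in co-IPs and 12.4 in inputs of GFP::ALG-2, with overlap.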
